A study of Mus musculus with 21 samples.

Results

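Transcripts of 50 voltage-gated and potassium channel genes were followed in left ventricle of mice with aortic banding, with and without vagus nerve stimulation. The members are the genes whose symbol begins with Kcn, Cacn, Scn and a digit, or Hcn and a digit, and that reached at least 1 CPM (read counts scaled to the library total) in at least 3 of 21 libraries. The members were thus chosen by their name and by the level measured in these libraries. The deposited counts cover 22136 genes, of which 138 matched these symbols. Of those, 50 passed that filter and 88 did not, 19 of the 88 having 0 counts in all libraries. The filter uses the level of a gene and not the group of a library, and no member rested on the libraries of 1 group. High values in a few libraries of different groups were enough to pass. Among the members, 25 reached 1 CPM in all 21 libraries and 10 did so in only 3 to 6. Just inside the limit stood Kcnj14 and Kcnv2, each at 1 CPM in 3 libraries, and just outside it Kcnip1 and Scn3a, each in 2 libraries. Kcnma1, the large-conductance calcium-activated channel of smooth muscle, was among those that did not pass. In all, 12100 genes were tested.

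Cardiac muscle cells fire an action potential in which sodium channels open first, calcium channels hold the membrane depolarised and trigger contraction, and several kinds of potassium channel bring the voltage back and keep the cell at rest. Pore-forming proteins work with accessory subunits that set how many channels reach the surface and how they open. Lower potassium currents and a longer action potential are a textbook feature of hypertrophied and failing ventricle, called electrical remodelling. The vagus nerve acts on the heart through acetylcholine, which opens an inward rectifier potassium channel of Kcnj3 and Kcnj5 subunits and slows the pacemaker current of Hcn channels, mainly in atria and conduction tissue.

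Mice were wild-type C57BL/6 males operated on at 8 weeks of age, and left ventricles come from week 8 after the operation. In 4 groups of banded mice the left cervical vagus received low-level stimulation (4 µA, 2 Hz) from a biodegradable nanogenerator under the skin. VNS20_1w, VNS20_2w and VNS20_4w had 20 min a day from week 1, 2 and 4 for 7, 6 and 4 weeks, and VNS10_1w had 10 min a day from week 1 for 7 weeks. AB_Implant mice were banded and carried the device from week 1 without activation, AB mice had ascending aortic banding alone, and Sham mice had the same operation with no ligature and no device. Each group holds 3 libraries of polyadenylated RNA, titled as biological replicates, with 11577509 to 19414865 counts per library. A comparison of stimulated mice with Sham therefore also holds banding and the device, and only AB_Implant carries the device without stimulation. The 20 min groups differ from each other in both start and duration.

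Most potassium channel genes share a signature that spells the selectivity filter, the narrow part of the pore that lets potassium pass. The signature encodes glycine, then tyrosine or phenylalanine, then glycine. It was found in the coding sequence of 25 of 29 potassium channel members, and 2 times in both tandem-pore genes, Kcnk2 and Kcnk3. The first signature of each gene held tyrosine in 19 and phenylalanine in 6. The 29 include the accessory subunits Kcnip2, Kcne1, Kcne4 and Kcnmb1, which form no pore. The windows below, for Kcnk3 that of 1 of its pair of signatures, are shown for Kcnk3, Kcnh2 and Kcnj8, which passed a test below, and for 4 other channels of well-known cardiac currents. Each holds 51 bases of the coding strand from GENCODE M21 transcripts on GRCm38, 5′ to 3′, with the 9 bases of the 3 signature codons in capitals.
Kcnk3: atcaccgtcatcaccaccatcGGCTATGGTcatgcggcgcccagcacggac
Kcnh2: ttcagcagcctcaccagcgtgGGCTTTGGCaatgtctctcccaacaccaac
Kcnq1: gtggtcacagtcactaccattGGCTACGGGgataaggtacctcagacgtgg
Kcnd2: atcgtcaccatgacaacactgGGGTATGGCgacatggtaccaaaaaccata
Kcnj2: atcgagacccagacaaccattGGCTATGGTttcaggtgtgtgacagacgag
Kcnj8: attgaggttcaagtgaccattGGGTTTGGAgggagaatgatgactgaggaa
Kcnj11: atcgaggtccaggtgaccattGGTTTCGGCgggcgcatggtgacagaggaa
Kcnj8 and Kcnj11, the pores of the ATP-sensitive channels, carry the phenylalanine codon, as does Kcnh2, while the strong inward rectifier Kcnj2 carries tyrosine. The window of Kcnh2 lies at chr5:24325534-24325584 in exon 7 (minus strand), that of Kcnj8 at chr6:142566427-142566477 in exon 3 (minus), and that of Kcnj11 at chr7:46099475-46099525 in exon 1 (minus). That of Kcnj2 lies at chr11:111072192-111072242 in exon 2 (plus). The windows of Kcnk3 (chr5:30588578-30621919, exons 1 and 2), Kcnd2 (chr6:21217391-21714162, exons 1 and 2) and Kcnq1 (chr7:143184540-143191467, exons 6 and 7), all on the plus strand, cross an exon junction, and these coordinates include the intron.

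Libraries stood apart in 3 ways beside these genes. The level of a gene depended on its length to a different degree in each library: the length slope, the change in log2 CPM per log2 of exon length relative to the mean library, ran from -0.305 to 0.444. VNS20_1w replicate 2 (0.426), VNS20_2w replicate 1 (0.444) and VNS10_1w replicate 2 (0.420) were the 3 steepest, and the 3 VNS20_4w libraries lay between -0.305 and -0.255, apart from the AB_Implant libraries at 0.0395 to 0.251. Sham slopes lay between 0.0248 and 0.257, a range like that of AB_Implant. In addition, 5 liver marker genes summed to 15.8 to 102 CPM in the 12 stimulated libraries and to 0 to 1.28 CPM in the 9 others, so that liver transcripts and stimulation moved together in every library and cannot be told apart. Finally, 4 atrial markers including Nppa summed to 277 to 1037 CPM in VNS20_1w, 289 to 2484 in VNS20_2w, 1133 to 5502 in VNS20_4w and 420 to 790 in VNS10_1w. They summed to 1830 to 5404 CPM in AB_Implant, 421 to 1750 in AB and 114 to 350 in Sham libraries. Most of that sum was Nppa, and Nppa did not order the groups as the other markers did. VNS20_4w averaged 2987 CPM of Nppa, 28.3 of Myl7 and 5.56 of Sln. In VNS20_1w these means were 642, 54.3 and 10.1 CPM, and in AB_Implant 3723, 77.5 and 15.2. The sum is therefore not a measure of atrial tissue alone. Myl7, an atrial myosin light chain, averaged 77.5, 51.2 and 16.9 CPM in AB_Implant, AB and Sham. Its highest library, at 230 CPM, was in AB_Implant and made up nearly all of the mean of that group. The same held for Myl4, with a mean of 80.0 CPM in AB_Implant and 235 in the highest library. The means of these 2 genes in AB_Implant thus rested on 1 library. In all libraries 5 cardiomyocyte markers summed to 28050 to 51250 CPM, and the markers Chat of cholinergic nerve, Isl1 of sinus node and Myh4 of fast skeletal muscle were at 0.

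Levels per length put a calcium-binding accessory subunit and a silent potassium subunit at the top. Kcnip2, needed for the fast transient outward current, averaged 15.3 ± 4.07 CPM per kb of exon length, and Kcng2, which forms no channel alone and changes the voltage dependence of the pores it joins, 13.8 ± 5.26 (SD, n = 21 libraries here and below). Kcnj11 (12.4 ± 2.68) and Kcnj8 (11.9 ± 3.28), pores of the channels that open when ATP falls, came next. The gaps between these 4 neighbours were smaller than their SDs, and each of the first 3 stood above the next in only 11 to 13 of 21 libraries. Kcnh2, the rapid delayed rectifier, had 10.9 ± 3.88 CPM per kb, Kcnk3, an acid-sensitive background potassium channel, 6.45 ± 2.54, and Kcna5, the ultrarapid delayed rectifier, 5.91 ± 1.49. Hcn2 and Kcnq1, the slow delayed rectifier, were at 5.12 ± 1.55 and 5.10 ± 1.07. Cacna1c, the main calcium channel of the ventricle, followed at 2.91 ± 1.62 although its 21191 bases of exon gave it a mean of 61.7 CPM, above the 53.05 CPM of Kcnip2.

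Other genes of well-known ventricular currents were low on the same scale. The inward rectifier Kcnj12 averaged 2.41 ± 0.838 CPM per kb, but Kcnj2, its better-known partner, only 0.386 ± 0.491. Kcnd2, the pore of the fast transient outward current in mouse, averaged 0.344 ± 0.269, and Kcnd3, its relative, 0.0766 ± 0.0708, both far below their partner Kcnip2. Kcna4, the slow transient outward pore, averaged 0.169 ± 0.115. The vagal target subunits Kcnj3 and Kcnj5 averaged 1.27 ± 0.757 and 1.15 ± 0.992 CPM per kb. Of the T-type calcium channels Cacna1g (1.15 ± 0.571) was above Cacna1h (0.552 ± 0.238), and Hcn4, the main pacemaker channel of the sinus node, was at 0.275 ± 0.207.

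**Figure D1:**
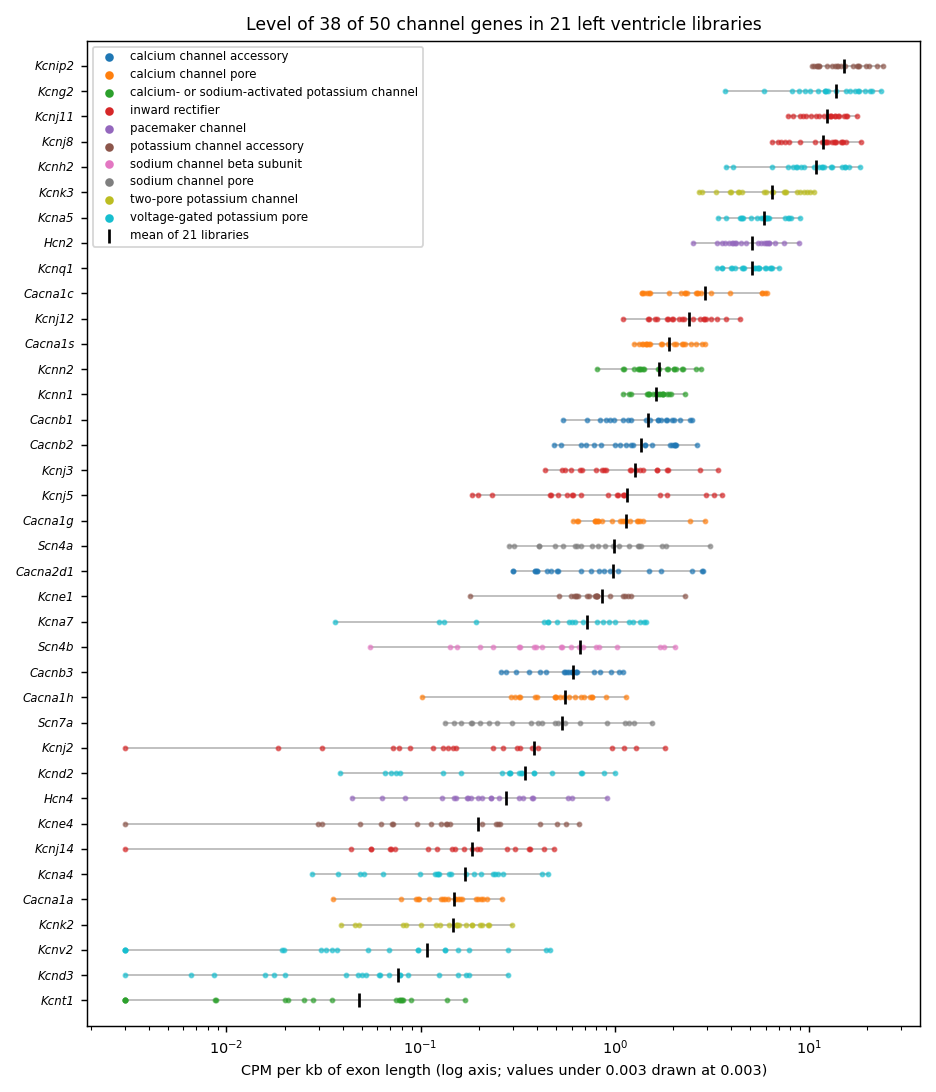
Level of 38 of the 50 channel genes, those named in the text (rows, ordered by mean), in CPM per kb of exon length on a log axis. Each point is 1 of 21 libraries, coloured by the role of the gene, and the black tick is the mean, from 15.3 for Kcnip2 to 0.0483 for Kcnt1.

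Many channel genes followed the length slope of the library. In each of the 3 groups with a steep library, 25 of 50 members (50%) were higher in the steep library than in the mean of the other two, against 40.2% of all tested genes with a length, and 13 (26%) were lower in all 3, against 38.0%. Kcnj2, which sets the resting potential, had 7.04 CPM in the steep VNS20_1w library against 0.758 and 0.101 in its group, 9.93 against 0.481 and 0.631 in VNS20_2w, and 6.09 against 0.423 and 0.714 in VNS10_1w. Its level changed by 6.51 log2 units per unit of slope, more than that of any other member, while the slope itself spanned 0.749. Cacna1c followed too, with 130, 126 and 122 CPM in the 3 steep libraries and between 29.3 and 56.9 in the 6 others of those groups.

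The pattern crossed most roles, though all 4 sodium channel pores had positive coefficients. Coefficients over 4 log2 units per unit of slope were also found for Kcnv2, a silent potassium subunit (5.66), Kcne4, a potassium accessory subunit (4.41), Cacna2d1, the extracellular subunit of the calcium channel (4.40), Scn4b, a sodium beta subunit (4.37), Scn7a, a sodium-sensing channel (4.26), Kcnd3 (4.23) and Kcnd2 (4.03). Of these, Kcnv2, Kcne4 and Kcnd3 reached 1 CPM in only 3, 4 and 5 libraries, and would not have passed the filter without the steep ones. Their high coefficients are thus in part a result of the filter. Kcnj5 had 3.92 and its partner Kcnj3 2.24. On the other side were Kcng2 (-1.76), Cacnb3, a calcium channel beta subunit (-1.66), and Kcnj8 (-1.23), whose counts were lower in steep libraries. Kcnq1 (-0.30), Kcnip2 (-0.25), Kcna5 (-0.08) and Kcnn1, a small-conductance calcium-activated channel (-0.06), hardly moved with it. Subunits of 1 channel could thus differ widely, as Kcnd2 and Kcnip2 of the transient outward channel did.

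**Figure D2:**
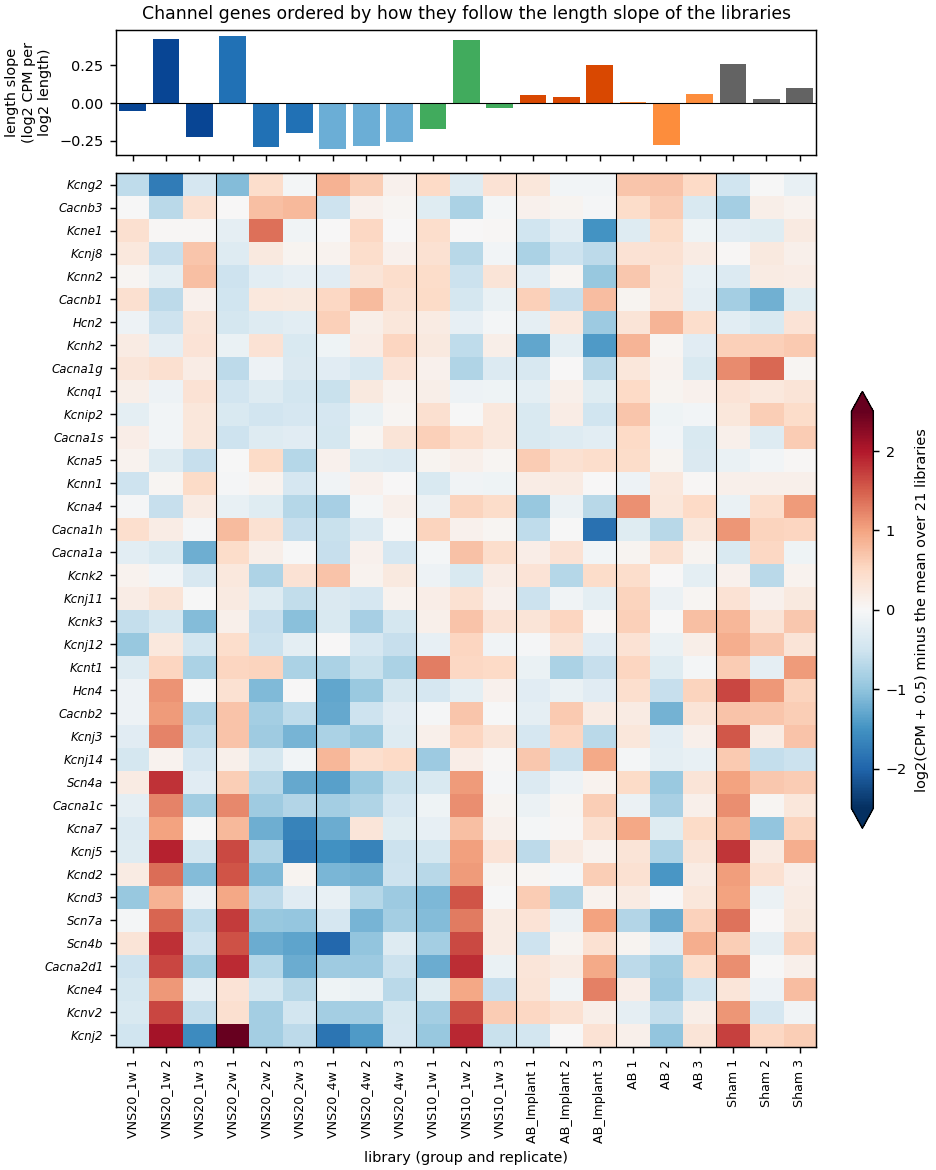
Top, the length slope of each library (log2 CPM per log2 of exon length), with groups from VNS20_1w on the left to Sham on the right. Below, log2(CPM + 0.5) of each of 38 members minus its mean over 21 libraries (colour, capped at 2.5), with members ordered from the most negative slope coefficient (Kcng2, -1.76) to the most positive (Kcnj2, 6.51), so that the bottom rows are red in the 3 steepest libraries.

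Length alone described the members less well than it described all genes. Across the 50 members the slope coefficient correlated with log2 exon length at r = 0.285, and across 12093 tested genes with a length at 0.552. With the GC content of the longest transcript the correlation was -0.538 across members and -0.292 across tested genes. All these points share the same 21 libraries, and genes are not independent of each other, so these are descriptions. Members were somewhat longer (median 4962.5 against 4486 bases) and richer in GC (median 54.6% against 49.9%) than tested genes. Kcnj2 combined 5444 bases with 41.2% GC, and the short Kcne4 (2657 bases) and Kcna7 (2182 bases, a skeletal muscle potassium channel) had coefficients of 4.41 and 3.56. Cacna1g, with 10137 bases and 58.1% GC, had a coefficient of -0.59, and Kcnn2, with 7468 bases, -1.15.

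**Figure D3:**
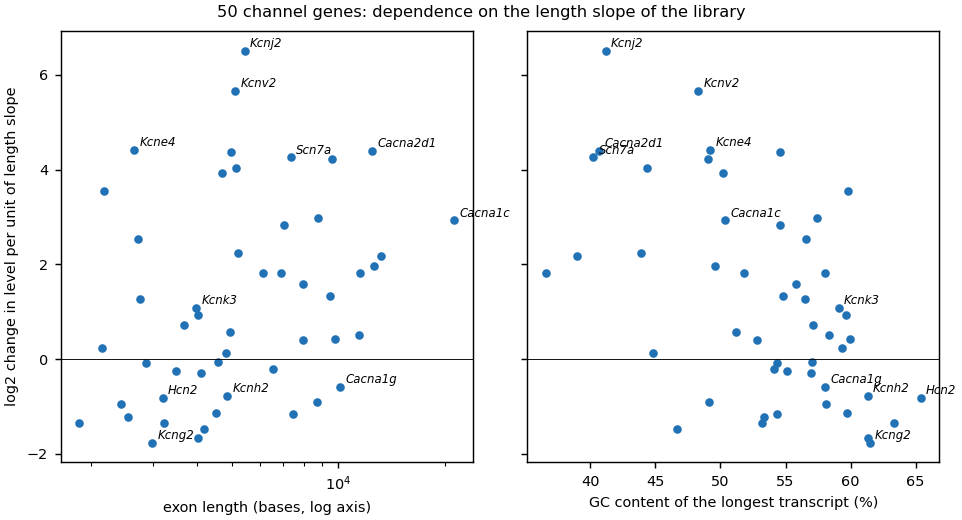
Change in log2 level per unit of library length slope for each of the 50 members (points), against exon length in bases on a log axis (left) and GC content of the longest transcript in percent (right). The correlation is 0.285 with log2 length and -0.538 with GC content.

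Because of this, every fold change was fitted in 2 ways: in the edgeR quasi-likelihood fit over all 21 libraries, and in the same fit with the length slope of the library as a covariate. Adjusted p-values are Benjamini-Hochberg values over all 12100 genes, and a gene passed the test at an adjusted p under 0.05. In the fit without the covariate 0 members passed in any of 11 comparisons between groups or in the F test over the 7 groups, although 3 to 14 members per comparison had an unadjusted p under 0.05. With the covariate 9 members passed somewhere: Kcnk3, Kcng2, Kcnh2, Kcnj8, Scn4a, Cacna1g, Cacna1h, Cacnb1 and Hcn4. Kcnj2, Cacna1c, Kcnd2 and Cacna2d1 did not pass in any comparison in either fit. Where groups differed in slope the covariate also takes up a part of any real difference between them, which cannot be told apart. In bulk tissue, fewer cells of a type and less RNA per cell cannot be told apart either.

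Stimulation against banding without stimulation showed Kcnk3 as the leading member. Kcnk3 had 15.5, 17.2 and 10.9 CPM in VNS20_1w, 26.0, 15.8 and 11.3 in VNS20_2w, and 18.1, 13.2 and 17.4 in VNS20_4w. In VNS10_1w it had 25.7, 39.2 and 30.4 CPM, in AB_Implant 29.9, 34.7 and 24.0, and in AB 35.9, 23.4 and 40.2. The 9 libraries with 20 min sessions lay at 10.9 to 26.0 CPM, with 8 of them below every other library of the study, and the exception was the steep VNS20_2w library. Over the 4 stimulated groups Kcnk3 averaged 20.1 ± 8.55 CPM (SD, n = 12), against 31.3 ± 6.78 (n = 6) in unstimulated banded mice. The log2 fold change was -0.71 ± 0.17 (SE) without the covariate (adjusted p = 0.111) and -0.66 ± 0.11 with it, where Kcnk3 fell (adjusted p = 0.00230). It was -0.84 without the 3 steepest libraries (adjusted p = 0.00372), where 17.5% of all genes passed. The stimulated libraries left there have slopes of -0.305 to -0.0336, against -0.275 to 0.251 in AB and AB_Implant. The part of the slope in that value was not tested. With any 1 library left out the log2 fold change of Kcnk3 lay between -0.81 and -0.63. Its adjusted p lay between 0.0131, without VNS20_2w replicate 1, and 0.456. With trends of length and GC content removed by offsets it was -0.64 (adjusted p = 0.563). Liver markers, which mark all stimulated libraries, were at 15.8 to 75.5 CPM in VNS10_1w, where Kcnk3 had 25.7 to 39.2 CPM, and their part in the Kcnk3 values was not tested.

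Kcng2 also fell in this comparison with the covariate (-0.58 ± 0.10, adjusted p = 0.00235, and -0.39 ± 0.21 with adjusted p = 0.987 without it). Kcng2 had -0.13 (adjusted p = 0.492) without the 3 steepest libraries. These were the 2 members that passed with the covariate, against 1.06% of all tested genes, and 0 members passed without it, against 0.438%. DESeq2 called 1 member, Kcnk3 (adjusted p = 0.0295), against 0.686% of all genes, and 4 members had an unadjusted p under 0.05 in edgeR, against 5% of all genes. The others were Kcna5 (-0.39 ± 0.16, adjusted p = 0.954), Kcne1, the accessory subunit of Kcnq1 (0.72 ± 0.31, adjusted p = 0.973), and Cacna1h (0.61 ± 0.28, adjusted p = 0.982). The median log2 fold change was -0.05 over the members and 0.02 over all genes. Leaving out the 3 steepest libraries gave 4 passing members, among them Kcnk3 and Cacna2d1, which were lower, and Kcnj8, which was higher, against 17.5% of all genes. Members split into 23 positive and 27 negative values, and 0 had groups that did not overlap in either direction, against 0.215% of all genes higher and 0.0165% lower.

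The session length was compared in mice stimulated from week 1. Kcnk3 fell with 20 min sessions against 10 min sessions once the covariate was fitted, by 1.10 on the log2 scale (SE 0.19, adjusted p = 0.00375), and the value without it was -1.12 ± 0.29 (adjusted p = 0.288). Kcng2 fell by 1.16 (SE 0.17, adjusted p = 0.000748) with the covariate and had -1.06 ± 0.36 (adjusted p = 0.635) without it. Its levels were 24.4, 11.02 and 28.5 CPM in VNS20_1w and 53.7, 30.4 and 49.0 in VNS10_1w, with no overlap, and the low value of each group came from the steep library. In this comparison 2 members passed with the covariate, against 1.17% of all genes, and 0 without it, against 0.0992%. DESeq2 called Kcnk3 (adjusted p = 0.0453), against 0.463% of all genes, and 3 members had an unadjusted p under 0.05, against 4.54%. Cacna1a, a neuronal calcium channel with 0.403 to 1.26 CPM in VNS20_1w and 1.52 to 3.00 in VNS10_1w, was the other one (-1.27 ± 0.44, adjusted p = 0.687). Without the 3 steepest libraries, which leaves 2 in each group, the value of Kcnk3 was -1.08 (adjusted p = 0.297) and that of Kcng2 -0.96 (adjusted p = 0.330), and 0.0248% of all genes passed. The 2 groups were apart for 4 members that were lower, against 3.99% of all genes, and 1 that was higher, against 4.5%.

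**Figure D4:**
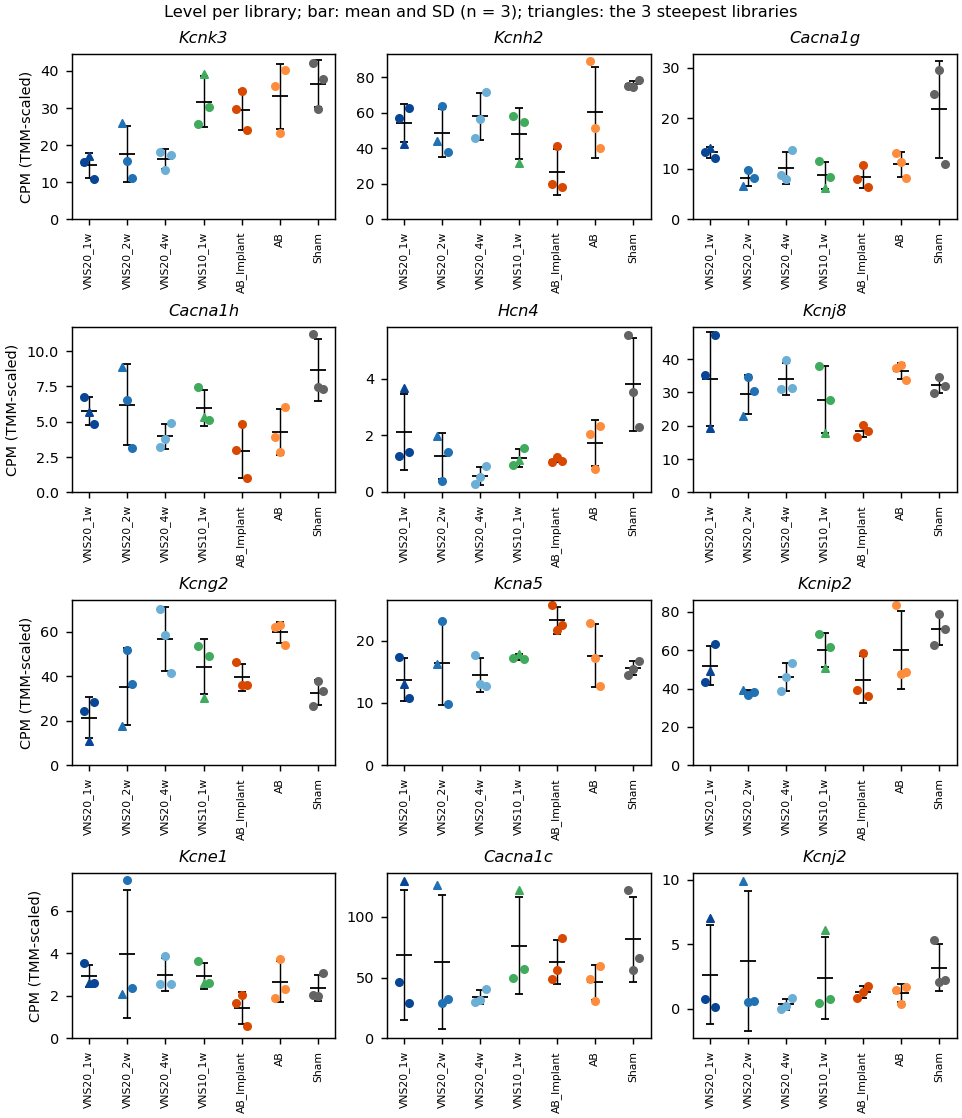
Level in CPM of 12 members in every library, with groups from VNS20_1w on the left to Sham on the right, and the mean and SD (n = 3) as a bar. Triangles mark the 3 steepest libraries: they are the highest points of Cacna1c and Kcnj2 in their groups, and Kcnk3 is low in the 3 groups with 20 min sessions.

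Stimulation with the device was compared with the silent device, group by group. The summed atrial markers, mostly Nppa, of VNS20_1w and VNS10_1w lay wholly below those of AB_Implant, and their part in these comparisons was not tested. In VNS20_1w against AB_Implant 0 members passed without the covariate (0.463% of all genes did), and 4 passed with it (3.98% of all genes). Kcng2 fell by 1.108 (SE 0.17, adjusted p = 0.000657) and Kcnk3 by 0.98 (SE 0.19, adjusted p = 0.00556), while Kcnj8 rose by 0.72 (SE 0.16, adjusted p = 0.0135) and Scn4a, the sodium channel of skeletal muscle, by 0.95 (SE 0.23, adjusted p = 0.0241). Kcnj8 had 35.2, 19.3 and 47.4 CPM in VNS20_1w, the lowest in the steep library, and 16.6, 20.2 and 18.4 in AB_Implant, so that the groups overlapped. Scn4a had 6.88, 21.9 and 4.74 CPM against 4.52, 5.37 and 6.30, so its groups overlapped and its high value came from the steep library. Its value without the 3 steepest libraries was 0.17 (adjusted p = 0.789), and that of Kcng2 was -0.52 (adjusted p = 0.176). In that fit Kcnj8 (1.23, adjusted p = 0.00482) and Kcnk3 (-1.10, adjusted p = 0.0399) passed, against 1.54% of all genes. The VNS20_1w libraries left there have slopes of -0.0542 and -0.221, below the 0.0395 to 0.251 of AB_Implant. Slope coefficients were -1.23 for Kcnj8 and 1.09 for Kcnk3, and the part of the slope in these calls was not tested. Kcnh2 had 57.0, 42.4 and 62.8 CPM in VNS20_1w and 19.8, 41.4 and 18.2 in AB_Implant (1.03 ± 0.34, adjusted p = 0.289, and 0.0579 with the covariate). Kcna5 had -0.75 ± 0.27 (adjusted p = 0.328). At an unadjusted p under 0.05 there were 9 members, against 8.77% of all genes, and DESeq2 called 0, against 1.57%. With offsets for length and GC content Kcng2 passed (-0.95, adjusted p = 0.0160), against 0.926% of all genes. Groups did not overlap for 7 members that were higher, against 5.76% of all genes, and 4 that were lower, against 6.67%.

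VNS20_2w against AB_Implant gave 0 members in both fits, against 0.174% of all genes without and 0.793% with the covariate, and DESeq2 also called 0, against 0.645%. The 5 members with an unadjusted p under 0.05, against 5.1% of all genes, included Kcne1 (2.09, 7.41 and 2.37 CPM against 1.66, 2.04 and 0.580, 1.47 ± 0.50, adjusted p = 0.593), Kcnh2 (0.88 ± 0.34, adjusted p = 0.768) and Kcnk3 (-0.73 ± 0.29, adjusted p = 0.777). There was no overlap between the groups for 3 members that were higher, against 3.57% of all genes, and 1 that was lower, against 3.74%. With the 3 steepest libraries left out 5 members passed, against 14.1% of all genes. Kcnj8 and Kcne1 were higher in VNS20_2w, and Kcnk3, Cacna2d1 and Kcna7 were lower. The VNS20_2w libraries left there have slopes of -0.288 and -0.200, below those of AB_Implant, and the part of the slope in these calls was not tested.

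VNS10_1w against AB_Implant likewise gave 0 members in both fits and by DESeq2, against 0.157% and 1.42% of all genes in the edgeR fits and 0.752% in DESeq2. Its members had 39 positive and 11 negative values with a median of 0.28, against 0.04 over all genes. With the covariate 37 were positive (median 0.27), with offsets for length and GC content 37 (0.24), and in DESeq2 39 (0.31). Without the 3 steepest libraries 26 were positive and the median was 0.02. The VNS10_1w libraries left there have slopes of -0.171 and -0.0336, below the 0.0395 to 0.251 of AB_Implant. The part of the slope in this was not tested. In the fit with all libraries all 6 calcium channel pores had positive values, but Cacna1c had -0.16 without the 3 steepest. The smallest p was that of Cacna1s, the skeletal muscle calcium channel (18.4, 16.3 and 14.5 CPM against 9.12, 9.53 and 9.94, 0.78 ± 0.26, adjusted p = 0.407). Kcnt1, a sodium-activated potassium channel of low level (3.03 ± 1.14, adjusted p = 0.507), and Kcnh2 (0.87 ± 0.34, adjusted p = 0.558) followed by p, and 8 members had an unadjusted p under 0.05, against 6.68% of all genes. No overlap was seen for 7 members that were higher, against 4.81% of all genes, and 3 that were lower, against 6.15%.

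In VNS20_4w against AB_Implant the length slopes of the groups did not overlap, and the covariate moved the median of the long members more than in any of the 10 other comparisons between groups. Of 20 members longer than 5934 bases the median log2 fold change was -0.83 without the covariate and 0.21 with it, against -0.47 and -0.01 over all long genes. The 12 members shorter than 3348 bases had medians of 0.32 and 0.22, against 0.42 and -0.03 over all short genes. Cacna1c had 29.9, 31.8 and 40.5 CPM in VNS20_4w and 49.0, 56.0 and 83.0 in AB_Implant, groups that do not overlap. Its log2 fold change was -0.88 ± 0.56 (adjusted p = 0.283), and with the covariate it was 0.31 ± 0.16 (adjusted p = 0.476). Cacna2d1 likewise had -1.38 ± 0.86 and 0.40 ± 0.27, so that both changed sign. All 4 sodium channel pores had negative values without the covariate, with a median of -1.29.

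Kcnh2, Kcnj8 and Kcnk3 kept their sign with the covariate in the same comparison, at a smaller size. Kcnh2 had 45.6, 56.6 and 71.7 CPM in VNS20_4w (1.13 ± 0.34, adjusted p = 0.128, and 0.85 ± 0.32 with the covariate), Kcnj8 31.1, 39.7 and 31.3 (0.89 ± 0.28, adjusted p = 0.140, and 0.40 ± 0.18), and Kcnk3 -0.86 ± 0.29 (adjusted p = 0.148, and -0.44 ± 0.21). Members that passed numbered 0 in both fits, against 0.322% of all genes in each. An unadjusted p under 0.05 was found for 6, against 26.3% of all genes, and DESeq2 called Kcnh2 (adjusted p = 0.0376), against 3.81%. Offsets for length, and for length and GC content, also gave 0 members, against 0.57% and 0.62% of all genes. Groups did not overlap for 13 members that were lower, against 25.6% of all genes, and 3 that were higher, against 23.2%. When the 3 steepest libraries, none of which belongs to these groups, were left out, 8 members passed, against 31.5% of all genes. Among them were Kcnj8, Kcnh2 and Kcng2, which rose, and Kcnk3, Cacna2d1, Cacna1c and Cacnb2, the main cardiac calcium channel beta subunit, which fell, although Kcng2 had -0.19 ± 0.19 with the covariate.

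No subunit that vagal acetylcholine acts on passed the test between stimulated and unstimulated banded mice. Kcnj3 averaged 5.84 ± 3.63 CPM in stimulated (n = 12) and 5.72 ± 1.95 in unstimulated banded libraries (n = 6), with a log2 fold change of -0.03 ± 0.34 (adjusted p = 0.997). Kcnj5 averaged 5.11 ± 5.28 and 4.02 ± 1.39 CPM (0.14 ± 0.51, adjusted p = 0.997). Hcn4 averaged 1.29 ± 0.906 and 1.42 ± 0.616 CPM, and Hcn2 15.7 ± 3.93 and 18.3 ± 7.00 (-0.19 ± 0.17, adjusted p = 0.987). With SEs of 0.34 and 0.51 on the log2 scale, changes of Kcnj3 and Kcnj5 of that size were not detectable here. The summed atrial markers, mostly Nppa, varied widely between libraries, and their part in the levels of these mainly atrial genes was not tested.

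Banding with the silent device against sham surgery gave the most members with a small p. The length slopes of both groups covered a like range, and the covariate changed little: the median log2 fold change of the members was -0.41 without and -0.37 with it, against -0.01 over all genes in both. Values were negative for 35 of 50 members (70%), against 51.2% of all genes, and this split was the same in all 6 fits. Without the covariate 0 members passed, against 0.281% of all genes, and 14 had an unadjusted p under 0.05, against 9.64%. With the covariate 7 passed, against 6.25% of all genes, 6 of them lower. Groups did not overlap for 13 members that were lower, against 9.32% of all genes, and 2 that were higher, against 9.45%.

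Kcnh2 led the list. It had 19.8, 41.4 and 18.2 CPM in AB_Implant, against 74.9, 74.4 and 78.3 in Sham, which was the tightest of the 7 groups. It fell by 1.55 with the covariate (SE 0.29, adjusted p = 0.00489), had -1.52 ± 0.34 without it (adjusted p = 0.0720), and passed in DESeq2 (adjusted p = 0.00264) and with length and GC trends removed (adjusted p = 0.0246). Cacna1g had 8.05, 10.8 and 6.51 CPM in AB_Implant and 24.8, 29.7 and 11.02 in Sham, nearly touching. With the covariate it fell by 1.39 (SE 0.29, adjusted p = 0.00994). Cacna1h, the other T-type channel, had 2.99, 4.84 and 0.994 CPM against 11.2, 7.43 and 7.32, and fell by 1.58 (SE 0.41, adjusted p = 0.0284). Hcn4 had 1.07, 1.21 and 1.08 CPM against 5.56, 3.53 and 2.31, and fell by 1.71 (SE 0.44, adjusted p = 0.0266). Kcnj8 fell by 0.81 (SE 0.16, adjusted p = 0.00650) and Scn4a by 0.92 (SE 0.23, adjusted p = 0.0212). Cacnb1, a calcium channel beta subunit best known from skeletal muscle, rose by 1.23 (SE 0.32, adjusted p = 0.0270), with 9.78, 4.08 and 11.1 CPM in AB_Implant and 3.27, 2.46 and 5.01 in Sham, which overlapped. DESeq2 called 3 of these members, Kcnh2, Cacna1g and Cacna1h, against 1.95% of all genes. With the 3 steepest libraries out of the fit, which are in neither group, 3 passed, Kcnh2, Kcnj8 and Cacna1g, against 1.33%. Without the covariate Kcnh2 and Cacna1h passed when AB_Implant replicate 2 was left out, and Cacna1g when Sham replicate 3 was.

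Other cardiac current genes did not pass. Kcnip2 had 39.2, 58.7 and 36.1 CPM in AB_Implant and 62.5, 78.6 and 71.1 in Sham (-0.66 ± 0.23, adjusted p = 0.295, and 0.0556 with the covariate). Kcnq1 had -0.45 ± 0.20 (adjusted p = 0.480), Kcnj11 -0.52 ± 0.23 (adjusted p = 0.446), Kcnj12 -0.67 ± 0.35 (adjusted p = 0.583) and Kcna4 -1.96 ± 0.67 (adjusted p = 0.267). Kcna5 was on the other side, with 25.7, 21.6 and 22.4 CPM in AB_Implant and 14.5, 15.5 and 16.7 in Sham, groups that do not overlap (0.58 ± 0.27, adjusted p = 0.492). Of the sets by role, 5 of 6 calcium channel pores, 6 of 8 inward rectifiers, 7 of 11 voltage-gated potassium pores, 4 of 4 sodium channel pores, 4 of 5 calcium- or sodium-activated potassium channels, 2 of 2 pacemaker channels and 2 of 3 potassium channel accessory subunits had negative values. The other sets did not lean that way: 3 of 7 calcium channel accessory subunits (median 0.01), 1 of 2 sodium channel beta subunits (median 0.22) and 1 of 2 two-pore potassium channels (median 0.06) were negative. Atrial markers, mostly Nppa, were 1830 to 5404 CPM in AB_Implant and 114 to 350 in Sham. Cardiomyocyte markers were 28050 to 39060 and 34220 to 40260 CPM. The part of both in these differences was not tested.

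Banding without a device was compared with Sham in the same way. In AB against Sham 0 members passed in both fits and by DESeq2, against 0% of all genes without and 0.0331% with the covariate and 0.0909% in DESeq2, and 6 members had an unadjusted p under 0.05, against 4.99%. Cacna1g had 13.2, 11.3 and 8.17 CPM in AB (-1.003 ± 0.33, adjusted p = 0.837), and Kcng2 62.0, 63.0 and 54.0 against 26.7, 37.7 and 33.5 in Sham (0.87 ± 0.35, adjusted p = 0.837). Kcnh2 spread over 89.1, 51.4 and 40.3 CPM in AB. Values were negative for 35 members without the covariate and 27 with it, with medians of -0.23 and -0.11, and long members moved most between the fits, with medians of -0.75 and -0.22. Over AB and AB_Implant together 39 of 50 members had negative values against Sham (32 with the covariate), 0 passed without the covariate (0% of all genes) and 2 with it (1.05%), but Cacna1g also passed without it when Sham replicate 3 was left out. These were Cacna1g (-1.25 ± 0.25, adjusted p = 0.0204) and Kcnh2 (-1.01 ± 0.24, adjusted p = 0.0448), and DESeq2 called Cacna1g (adjusted p = 0.0209), against 0.736% of all genes. In that comparison 9 members had an unadjusted p under 0.05, against 7.12%. AB and Sham were apart for 5 members that were lower in AB than in Sham, against 6.99% of all genes, and 2 that were higher, against 6.77%.

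AB_Implant and AB differ by the silent device and share the same banding. Kcnj8 had 16.6, 20.2 and 18.4 CPM in AB_Implant, against 37.3, 38.3 and 33.6 in AB, and 29.8, 34.6 and 31.9 in Sham. Its log2 fold change against AB was -0.99 ± 0.28 (adjusted p = 0.320), and with the covariate it fell by 0.76 (SE 0.16, adjusted p = 0.0399). Kcnj8 marks vascular smooth muscle and pericytes as well as muscle cells. The 6 smooth muscle and pericyte markers summed to 129 to 154 CPM in AB_Implant, 162 to 225 in AB and 187 to 527 in Sham. Acta2 had the largest means, at 54.6, 99.9 and 169 CPM in that order, with Myh11 at 18.8, 24.9 and 37.6 and Tagln at 24.5, 34.5 and 32.0. Rgs5 was higher in AB_Implant than in AB (20.4, 16.1 and 27.9). Pdgfrb (14.3, 15.9 and 26.7) and Cspg4 (7.79, 8.98 and 9.55) differed little between these 2 groups. Their part in the Kcnj8 level was not tested. This was the member that passed with the covariate, against 0.372% of all genes, and 0 passed without it (0% of all genes) or by DESeq2 (0.562%), with 5 members at an unadjusted p under 0.05, against 9.08%. Kcnh2 (-1.19 ± 0.34, adjusted p = 0.336), Kcna4 (-2.17 ± 0.67, adjusted p = 0.381) and Hcn2 (-0.80 ± 0.29, adjusted p = 0.422) came next. The 4 comparisons of a stimulated group with AB_Implant and the comparisons of AB_Implant with AB and Sham share the same 3 AB_Implant libraries and are not independent.

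Stimulated banded mice against Sham had 38 of 50 members with negative values, a median of -0.41 without and -0.21 with the covariate, against -0.01 and -0.04 over all genes. Without the covariate 0 members passed, against 0.355% of all genes, and 11 had an unadjusted p under 0.05, against 8.83%. Cacna1g came closest, at 6.18 to 14.2 CPM (median 9.28) in the 12 stimulated libraries and 24.8, 29.7 and 11.02 in Sham (-1.14 ± 0.24, adjusted p = 0.0501). It fell with the covariate (-1.24 ± 0.22, adjusted p = 0.00667) and in DESeq2, and its Sham values were spread, with replicate 3 inside the stimulated range. Hcn4 had 0.273 to 3.67 CPM (median 1.19) against 5.56, 3.53 and 2.31 (-1.69 ± 0.40, adjusted p = 0.0993), and fell with the covariate (-1.42 ± 0.33, adjusted p = 0.0370). Kcnk3 had 10.9 to 39.2 CPM (median 17.3) against 42.2, 29.8 and 37.8 (-0.94 ± 0.21, adjusted p = 0.0708), and fell with the covariate (-0.77 ± 0.15, adjusted p = 0.0102). These were the 3 members that passed with the covariate, against 1.4% of all genes, and DESeq2 called the same 3, against 1.1%. All 3 passed without the covariate too when VNS20_2w replicate 1 was left out. Leaving out VNS20_1w replicate 2 gave Hcn4, and leaving out VNS20_4w replicate 3, VNS10_1w replicate 1 or Sham replicate 3 gave Cacna1g. Kcnj12, with 3.03 to 9.31 CPM against 12.2, 10.4 and 7.92, had -0.84 ± 0.26 (adjusted p = 0.302).

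Kcnh2 was the member whose 12 stimulated libraries all lay below Sham, at 31.5 to 71.7 CPM (median 55.7) against 74.4 to 78.3, a pattern seen in 0.562% of all genes, although its log2 fold change was -0.54 ± 0.26 (adjusted p = 0.557). Its AB_Implant values, 18.2 to 41.4 CPM, overlapped the stimulated range. Without the 3 steepest libraries 19 members passed against Sham, 17 of them lower, but so did 28.3% of all genes. The 9 stimulated libraries that remain there have slopes of -0.305 to -0.0336, all below the 0.0248 to 0.257 of Sham, and the part of the slope in these calls was not tested. The passing genes include Kcnj2, Kcnj5, Scn7a, Scn4b, Kcne4 and Kcnd2, with coefficients of 3.92 or more per unit of slope, and also Cacna1g (-0.59), Kcnk3 (1.09) and Kcnj12 (1.27).

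Over all 7 groups at once 0 members passed the F test without the covariate, against 0.537% of all genes, and 11 had an unadjusted p under 0.05, against 10.6%. The smallest adjusted p was that of Kcnk3 (0.0699). With the covariate 5 passed, against 4.12% of all genes: Kcng2 (adjusted p = 0.000700), Kcnk3 (0.000875), Cacna1g (0.0170), Kcnj8 (0.0304) and Scn4a (0.0382). DESeq2 called Kcnk3, Cacna1g, Hcn4 and Kcng2, against 4.47% of all genes. With the 3 steepest libraries left out 16 passed, against 19.8%. Without the covariate Kcnk3 passed when VNS20_2w replicate 1 was left out, and Cacna1g when Sham replicate 3 was.

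**Figure D5:**
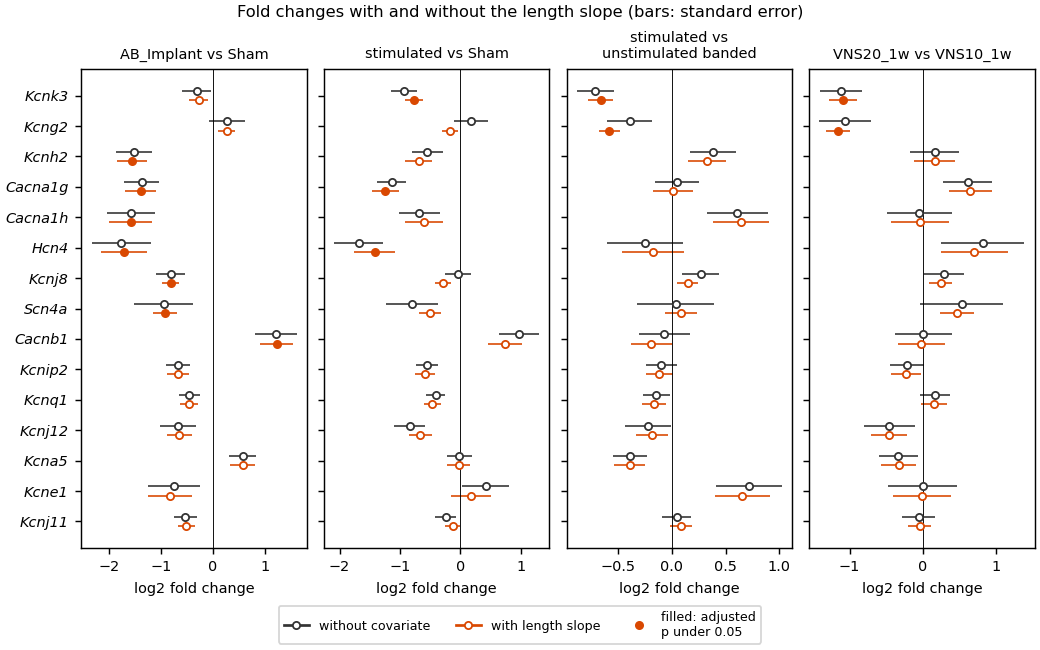
Log2 fold changes (points, with standard errors) of 15 members in 4 comparisons, in the fit without the covariate (black) and with the length slope (orange). Filled points have an adjusted p under 0.05: Kcnk3 is filled in 3 of the 4 panels, and Kcnh2, Cacna1g, Cacna1h, Hcn4, Kcnj8, Scn4a and Cacnb1 in AB_Implant against Sham.

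Among 24 other genes of cardiac excitability that are not channel members by symbol, 22 were tested: gap junction proteins, the sodium pump and exchanger, sulfonylurea receptors, anchoring proteins and the Irx and Tbx regulators. Only Irx4, a ventricular transcription factor, passed without the covariate. It rose in VNS20_1w (0.82 ± 0.17, adjusted p = 0.0420) and VNS20_4w (1.06 ± 0.17, adjusted p = 0.00846) against AB_Implant and fell in AB_Implant against Sham (-0.86 ± 0.17, adjusted p = 0.0467), and 0 of 22 passed in each of the 8 other comparisons between groups. With the covariate Abcc8, a sulfonylurea receptor, fell in AB_Implant against Sham (-0.70, adjusted p = 0.0189) and rose in VNS20_1w against AB_Implant (0.65, adjusted p = 0.0355). Abcc9, also a sulfonylurea receptor, fell in AB_Implant against Sham (-0.90, adjusted p = 0.0126). Trpm4, a calcium-activated cation channel, and Tbx5, a regulator of conduction genes, fell there as well (-0.91 with adjusted p = 0.0146 and -1.46 with adjusted p = 0.0119). The list had a median of -0.44 in that comparison with 4 of 22 values positive, against -0.01 over all genes.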

How the data were processed

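The authors deposited a table of read counts per gene for 21 libraries, 3 in each of 7 groups. Its name speaks of normalized counts, but 100% of the values are whole numbers and library totals differ, so the deposited counts were used as raw counts. The submitters' processing notes name GRCm38 and, with no role or order, HISAT2 2.1.0, featureCounts 1.6.0, FastQC 0.11.9, cutadapt 1.11, R 4.0.3 and edgeR 3.32.1. The annotation and the strand setting are not given in the sources used here. Reads of antisense and overlapping genes, such as Kcnq1 and its antisense transcript, can therefore not be told apart.

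Symbols, coordinates and exon lengths (union of exons) came from GENCODE M21. Genes with at least 1 CPM in at least 3 libraries were fitted with edgeR 4.0.16 in R 4.3.3 (TMM factors, quasi-likelihood test, 7 groups and 21 libraries in 1 model, no covariate). Levels are CPM with TMM-scaled library size. The other fits added the length slope as a covariate, removed within-library trends of length or of length and GC content by offsets (loess span 0.3), left out the 3 steepest libraries, or used DESeq2 1.42.0. On simulated counts for VNS20_1w against AB_Implant over 12100 genes the edgeR fit without covariate called 12 of 100 genes changed 2-fold and 58 of 100 changed 4-fold, all with the right sign, and 0 unchanged genes. The simulated libraries had no length slope and genes varied independently, unlike the real ones. The simulation therefore does not show how often the fits with the covariate or offsets call unchanged genes.

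Members named are those that passed in any comparison, the 3 of the smallest p in each, 29 cardiac current genes and the 5 of the highest CPM per kb. Others are named where an order or count singles them out, after their values were seen. Members, lists and tests were chosen with earlier results of these data known. Same-numbered replicates of different groups did not deviate together, so replicate numbers were not used to pair samples. Some channel genes are not reported here.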

Additional observations from a re-analysis of the deposited data

How the results depend on the processing

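Without any covariate 0 members passed the edgeR test in all 12 comparisons, and other settings added calls. The length slope as a covariate gave 4 (VNS20_1w against AB_Implant), 2 (stimulated against unstimulated banded), 2 (VNS20_1w against VNS10_1w), 7 (AB_Implant against Sham), 2 (unstimulated banded against Sham), 3 (stimulated against Sham), 1 (AB_Implant against AB) and 5 (F test). In the same order DESeq2 gave 0, 1, 1, 3, 1, 3, 0 and 4, plus 1 in VNS20_4w against AB_Implant. The shares of all genes beside these counts are given above. Without the 3 steepest libraries the counts were 2, 4, 0, 3, 0, 19, 1 and 16. In that order 1.54%, 17.5%, 0.0248%, 1.33%, 0.198%, 28.3%, 0.306% and 19.8% of all genes passed. There were also 5 members in VNS20_2w and 8 in VNS20_4w against AB_Implant, against 14.1% and 31.5% of all genes. A length offset gave 1 in stimulated against Sham (Hcn4, against 0.479% of all genes) and 1 in the F test (Kcnk3, against 0.975%). An offset for length and GC content, chosen after seeing the data, gave Kcng2 in VNS20_1w against AB_Implant, VNS20_1w against VNS10_1w and the F test. In these 0.926%, 0.264% and 0.959% of all genes passed. It also gave 1 in AB_Implant against Sham (Kcnh2, against 0.744% of all genes). Stimulated against Sham gave 1 without the 13 mitochondrial genes and 1 with no filter, and the F test 1 with no filter. For these fits, and for those with 1 library left out or with a block, shares of all genes are not given. Their counts are therefore not read as a result about the members. The causes were not tested.

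Leaving out 1 library at a time gave 0 to 1 calls in stimulated against unstimulated banded (Kcnk3), unstimulated banded against Sham (Cacna1g) and the F test (Kcnk3 or Cacna1g), 0 to 2 in AB_Implant against Sham, and 0 to 3 in stimulated against Sham, where the highest count came without VNS20_2w replicate 1. Without Sham replicate 3 Cacna1g passed in AB_Implant, in unstimulated banded and in stimulated mice against Sham. Over 33 leading pairs of member and comparison the direction changed in 0 of the fits that left out 1 library. These pairs were the 3 members of the smallest p in each comparison between groups, a choice that favours a stable direction.

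The replicate number as a block gave 0 calls in every comparison, and a block with the length slope gave 4, 2, 2, 7, 1, 3, 0 and 3 in the order above, where the slope alone gave 4, 2, 2, 7, 2, 3, 1 and 5. The numbers did not pair the samples: over 63 same-numbered pairs correlations of deviations ran from -0.788 to 0.849 with a median of -0.0602, and 8 of 21 libraries correlated best with their own number. Low counts limit Kcnj2, Kcnd2, Kcnd3, Kcna4 and Hcn4, and intervals and tests cover only the spread between these mice.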
